A study of Homo sapiens with 2 samples.

Results

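The genes described here are the writers, erasers and readers of N6-methyladenosine (m6A), 10 genes found by Entrez gene number among the 16021 genes or gene models of the series. They are the writer genes METTL3, METTL14, WTAP and VIRMA, the eraser genes FTO and ALKBH5, and the reader genes YTHDF1, YTHDF2, YTHDF3 and YTHDC1. All 10 were listed in the table and all 10 passed the filter used for counts, which kept genes averaging at least 1 FPKM across the pair of libraries. RNA was sequenced from the human gastric adenocarcinoma line HGC-27, grown in RPMI-1640 with fetal bovine serum, after transduction with lentivirus encoding a non-targeting shRNA (the control library) or DDX5 shRNA (the knockdown library). DDX5 is a DEAD-box RNA helicase. Both groups were selected with puromycin from 48 h after transduction and collected 1 week later. Each group was 1 library, so no p-value or standard error was possible, and the spread between cultures was not measured. How many hairpins targeted DDX5 is not given in the sources used here.

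m6A is a methyl mark placed on adenosines of messenger RNA, typically within a short consensus such as GGACT. A nuclear complex writes it. METTL3 is the catalytic subunit, METTL14 holds the RNA without being an active enzyme itself, WTAP brings the pair to nuclear speckles, and VIRMA is a large scaffold that steers methylation towards the ends of transcripts. FTO and ALKBH5 are iron-dependent dioxygenases that remove the mark. Proteins with a YTH domain bind it: YTHDC1 acts in the nucleus on splicing and export, while the cytoplasmic YTHDF proteins act on decay and translation, YTHDF2 being the best known for recruiting the CCR4-NOT deadenylase. The deposited values are transcript levels and do not measure the m6A mark.

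FPKM scales fragments to transcript length and library size, so levels of different genes can be compared within a library. Ratios below are log2 ratios of FPKM + 1, knockdown over control, and fold values for single genes are ratios of the deposited FPKM. DDX5 itself measured 170.5 FPKM in the control and 50.78 FPKM in the knockdown library, 29.8% of the control level. Total FPKM was 549129 and 594757, with cytosolic ribosomal protein genes at 27.9% and 33.4% of the sum. The steps between low values of short genes with 1 transcript corresponded to about 1.39e+07 and 1.45e+07 fragments, from 93 and 90 genes, of which 69.9% and 71.1% lay within 0.15 of a whole step. A step fixed beforehand would give 30% by chance, and here the step was chosen for the best fit. So was a cut from transcript length, 50 bases in the control and 100 bases in the knockdown library. Since the cuts differ, the difference between the depths cannot be read as real. At those depths the members came to about 649 to 2358 fragments in the control and 559 to 2764 in the knockdown library, using the length of the longest transcript, which can make them too high. Of 16 gastric and epithelial markers, 9 were listed and 3 reached 1 FPKM in each library. Those were KRT8 (5.24 and 1.31 FPKM), KRT7 (1.07 and 1.35 FPKM) and MUC1 (6.12 and 7.41 FPKM). Below that level, EPCAM measured 0.04 and 0.39 FPKM and CDH1 0.36 and 0.07 FPKM. Of 6 mesenchymal markers, 3 were lower and 3 higher in the knockdown library, with VIM at 1583.62 and 1270.59 FPKM and TWIST1 at 98.96 and 199 FPKM. Of 8 fibroblast markers, 7 were at 1 FPKM or more in both libraries, with a summed level of 964.77 FPKM in the control and 1483.45 FPKM in the knockdown library. Among them 4 were lower and 4 higher, and the sum followed mainly COL3A1 (482.44 and 943.99 FPKM) and DCN (68.13 and 140.68 FPKM). Leukocyte markers summed to 2.77 and 2.55 FPKM and endothelial markers to 0.02 and 0.11 FPKM. The part of these differences in the results below was not tested.

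The sequence upstream of METTL3, the member with the lowest ratio, is shown beside that of YTHDC1, the member with a ratio nearest to 0 whose upstream window holds no annotated exon. Both come from RefSeq (GRCh38.p14) and read 5′ to 3′ towards the gene. For METTL3 the bases that GENCODE v29 annotates as exon were left off. The METTL3 stretch is chr14:21511376-21511590 and the YTHDC1 stretch chr4:68350091-68350340, both on the minus strand. Capitals mark matches to the searched letters on either strand.
METTL3: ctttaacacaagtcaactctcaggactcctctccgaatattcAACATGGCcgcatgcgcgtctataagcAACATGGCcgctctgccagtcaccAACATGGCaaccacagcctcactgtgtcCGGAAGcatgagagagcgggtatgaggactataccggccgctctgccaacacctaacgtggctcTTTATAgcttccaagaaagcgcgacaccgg
YTHDC1: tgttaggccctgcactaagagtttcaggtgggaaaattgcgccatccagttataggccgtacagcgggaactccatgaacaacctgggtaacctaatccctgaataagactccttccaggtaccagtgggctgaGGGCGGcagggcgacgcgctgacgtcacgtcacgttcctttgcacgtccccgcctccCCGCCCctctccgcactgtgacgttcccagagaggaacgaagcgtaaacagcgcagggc
The search covered the GC box, written GGGCGG, and the CCAAT box under that name. It also covered the TATA box, written TATAAA, and the E-box of MYC-type factors, written CACGTG. The core of ETS factor sites was written CGGAAG. The run AACATGGC was added after the METTL3 sequence was seen. Of the 10 members, 8 matched the promoter table, and VIRMA and YTHDF3 did not. In the 250 bases upstream, METTL3 held AACATGGC 3 times, TATAAA once on the opposite strand, CGGAAG once and no GC box. YTHDC1 held 2 GC boxes and none of the other letters. Of 35116 upstream windows of that length, 42.6% held a GC box, 32.0% CCAAT, 10.7% TATAAA, 6.34% CACGTG, 16.5% CGGAAG and 0.951% AACATGGC. Those windows were not limited to genes past the filter. Of the 9279 such genes with a window, 7068 had a GC box, 3952 CCAAT, 693 TATAAA, 1080 CACGTG and 3238 CGGAAG. METTL3 was the 1 window with AACATGGC 3 times or more. Since the run was picked from that sequence, this count is no evidence about METTL3. An upstream window of WTAP, log2 ratio 0.03, held AACATGGC 1 time. Among genes past the filter, the 140 with AACATGGC upstream had a median log2 ratio of 0.09, against 0.02 for all 9279 with an upstream window. GC content was 53.2% upstream of METTL3, the lowest of the 8 members with a window, and reached 77.6% upstream of YTHDF1, with a median of 58% over all windows.

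Among the writers, METTL3 and VIRMA transcripts were lower in the knockdown library, METTL14 differed less, and WTAP hardly at all. METTL3 measured 32.43 FPKM in the control and 19.13 FPKM in the knockdown library. That is 59.0% of the control level, 1.70-fold lower, a log2 ratio of -0.73. In bulk RNA, fewer cells with a transcript and less of it per cell cannot be told apart. METTL3 was the 1 member that passed 1.5-fold on FPKM + 1 in either direction. Of 11413 genes past the filter, 10.1% were at least 1.5-fold lower and 13.1% at least 1.5-fold higher, so 1 of 10 members lower is close to the share among all genes. A total of 6.19% of genes had a ratio as low as that of METTL3 or lower. Genes at its level had log2 ratios with a robust SD of 0.53.

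VIRMA measured 19.22 FPKM in the control and 13.56 FPKM in the knockdown library, a log2 ratio of -0.47 (1.42-fold lower). Its ratio was at percentile 14.6 of all genes. METTL14, the binding partner of METTL3, measured 7 and 5.83 FPKM, log2 ratio -0.23, and was the lowest member in both libraries. WTAP measured 33.33 and 33.98 FPKM, with a log2 ratio of 0.03 that became -0.08 when both libraries were rescaled to the same total FPKM. The catalytic subunit and the scaffold were therefore the low members of the writer group, and the adaptor was level. The summed level of the 4 writers was 91.98 FPKM in the control library and 72.5 FPKM in the other, 78.8% of control. Most of that difference was METTL3 (32.43 and 19.13 FPKM).

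Levels within a library do not depend on how the libraries are scaled to each other. METTL3 was 4.63 times METTL14 in the control library and 3.28 times in the knockdown library. WTAP and METTL3 were nearly level in the control, with a WTAP to METTL3 ratio of 1.03, and WTAP was 1.78 times METTL3 in the knockdown library. ZC3H13, a further writer subunit that keeps the complex in the nucleus, had almost the same ratio as METTL3. It measured 29.12 and 17.37 FPKM, log2 ratio -0.71, and METTL3 was 1.11 and 1.10 times ZC3H13 in the respective libraries. These are transcript ratios in 1 library each, with no measured error. A total of 6.54% of genes had a ratio as low as that of ZC3H13 or lower. Whether ZC3H13 and METTL3 vary together cannot be told from 2 libraries.

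**Figure D1:**
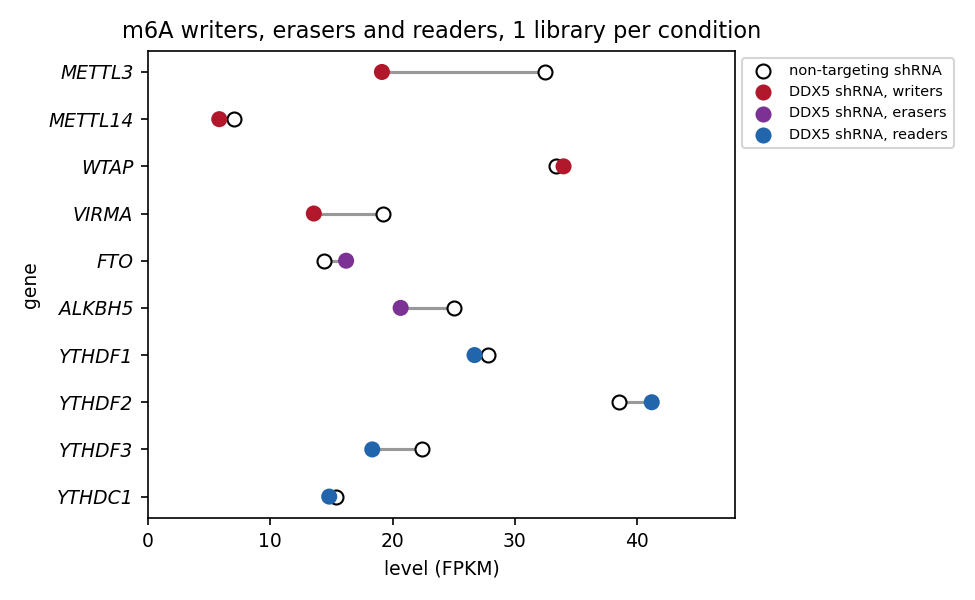
Level in FPKM (x axis) of each of the 10 members (y axis). Open circles are the control library and filled circles the knockdown library, coloured by role, with 1 library per condition and no error bars. The longest line is that of METTL3, from 32.43 to 19.13 FPKM.

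The erasers lay on either side of 0. ALKBH5, the mainly nuclear demethylase, measured 25.03 FPKM in the control and 20.66 FPKM in the knockdown library, a log2 ratio of -0.27. FTO, which also acts on the related cap-adjacent mark, measured 14.42 and 16.2 FPKM, with a log2 ratio of 0.16, the highest of the 10. FTO was above 0 under each of the 9 settings tried, from 0.05 to 0.17. Of these, only the 4 scalings could have changed its sign. ALKBH5 was 1.74 times FTO in the control library and 1.28 times in the knockdown library. METTL3 was 1.30 times ALKBH5 in the control and 0.926 times in the knockdown library, so their order was exchanged. With 1 library each, whether this exchange exceeds the spread between cultures cannot be told. The erasers together summed to 39.45 and 36.86 FPKM, 93.4% of control.

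The summed FPKM of the readers was nearer to its control level than that of the writers or the erasers. YTHDF2 was the most abundant member in both libraries, at 38.55 FPKM in the control and 41.19 FPKM in the knockdown library, a log2 ratio of 0.09 that became -0.02 at the same total FPKM. YTHDF1, which is linked to translation of marked transcripts, measured 27.84 and 26.7 FPKM, log2 ratio -0.06. YTHDC1, the nuclear reader, measured 15.34 and 14.82 FPKM, log2 ratio -0.05. YTHDF3, a partner of both other YTHDF proteins, was the reader with the lowest ratio, at 22.43 and 18.34 FPKM (-0.28). The summed level of the 4 readers was 104.16 and 101.05 FPKM, 97.0% of control, compared with 78.8% for the writers. The writer sum followed mainly METTL3 (32.43 and 19.13 FPKM).

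YTHDF1, YTHDF2 and YTHDF3 are close paralogs that bind the same mark. YTHDF2 made up 43.4% of their summed FPKM in the control library and 47.8% in the knockdown library. YTHDF3 made up 25.3% and 21.3%, and YTHDF1 31.3% and 31.0%. The order YTHDF2, YTHDF1, YTHDF3 was the same in both libraries.

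Over the 10 members, 7 had a ratio below 0 and 3 above, with a median of -0.14. Among all genes past the filter 47.8% were below 0 and 52% above, and the median was 0.02. At least 2-fold differences on FPKM + 1 were found in 2.26% of genes on the lower side and 4.19% on the higher side, and in 0 of 10 members on either side. At the same total FPKM the median of all genes moved to -0.08 and that of the members to -0.25, and a share of 56.7% of all genes and 9 of 10 members were below 0, with FTO the exception. The same rescaling turned the counts of all genes at least 1.5-fold lower and higher from 1158 and 1492 to 1629 and 1154. The members spanned 5.51-fold in level in the control library, from METTL14 to YTHDF2, and 7.07-fold in the knockdown library.

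From highest to lowest, the control library held YTHDF2, WTAP, METTL3, YTHDF1, ALKBH5, YTHDF3, VIRMA, YTHDC1, FTO and METTL14. The knockdown library held YTHDF2, WTAP, YTHDF1, ALKBH5, METTL3, YTHDF3, FTO, YTHDC1, VIRMA and METTL14. METTL3 went from rank 3 to rank 5, VIRMA from rank 7 to rank 9 and FTO from rank 9 to rank 7. With 1 library per condition there is no spread by which neighbours in these orders could be told apart.

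**Figure D2:**
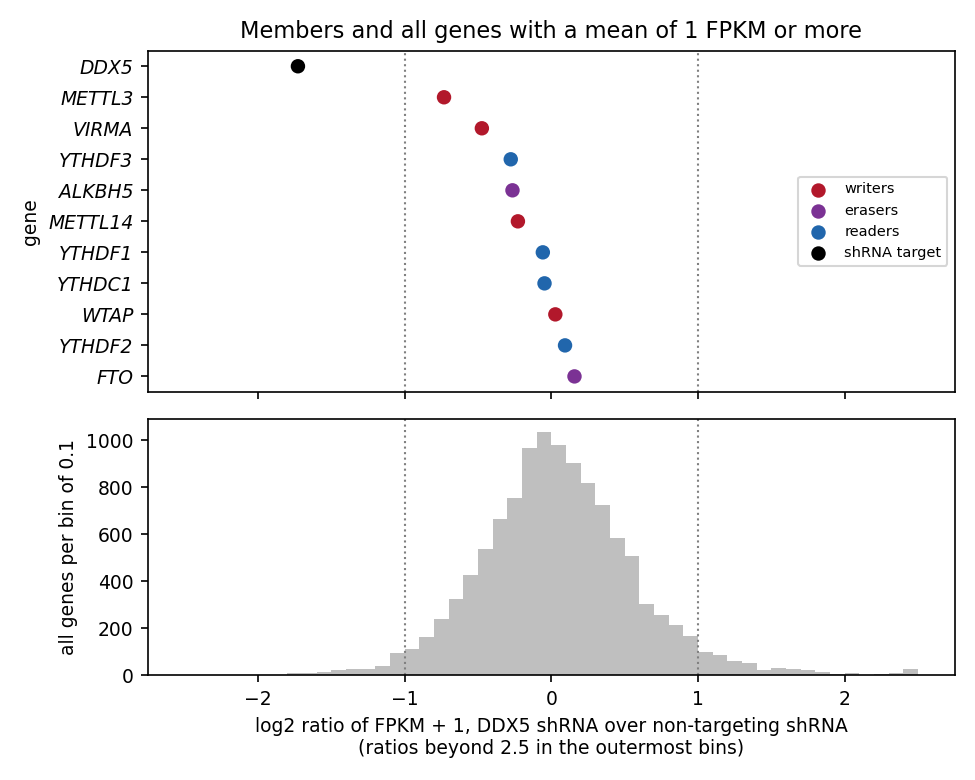
Upper panel: log2 ratio of FPKM + 1 (x axis) for DDX5 and the 10 members, coloured by role. Lower panel: number of genes (y axis) per bin of 0.1 for the 11413 genes past the filter, with dotted lines at 2-fold. All 10 members lie between the dotted lines, from -0.73 (METTL3) to 0.16 (FTO), and DDX5 lies at -1.73.

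Some member transcripts share sequence or position with other genes. With reads that do not record strand, reads from overlapping genes on opposite strands cannot be told apart, and the strand setting is not given in the sources used here. In GENCODE v29, 17.1% of the exonic bases of the longest METTL3 transcript lie opposite exons of TOX4, a chromatin protein gene. TOX4 measured 16.26 and 21.91 FPKM and so differed in the other direction from METTL3. For WTAP, 8.15% of exonic bases lie opposite SOD2, the mitochondrial superoxide dismutase gene, which measured 17.25 and 10.58 FPKM. For ALKBH5 the share was 13.0%, opposite an unnamed transcript model. Of the 50-base windows of YTHDF2, 12.8% also occur in its pseudogene YTHDF2P1, and 5.82% of those of WTAP occur in a further unnamed model. The part of these overlaps in the ratios was not tested.

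The consensus letters GGACT occurred 4 times in the longest METTL3 transcript, or 1.99 per kilobase, the densest of the 10 members. VIRMA had 10, or 1.53 per kilobase, and YTHDF1 had 1, or 0.303 per kilobase. The median over 11172 genes past the filter with a transcript was 0.924 per kilobase. These densities count letters and not marked sites.

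The remaining genes of the pathway were taken from 6 lists that together hold 45 genes, all past the filter. Of these, 34 had a ratio below 0 and 11 above, against 47.8% and 52% of all genes. Their median was -0.14, the same to 2 decimals as that of the 10 members. On FPKM + 1, 9 of 45 were at least 1.5-fold lower and 1 at least 1.5-fold higher, against 10.1% and 13.1% of all genes. POP1 was the 1 gene at least 2-fold lower and ALKBH3 the 1 gene at least 2-fold higher, against 2.26% and 4.19% of all genes.

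Of the 4 other writer subunits, ZC3H13 was the 1 that passed 1.5-fold on FPKM + 1, where 10.1% of all genes were that much lower. RBM15, which recruits the complex to RNA, measured 5.32 and 3.39 FPKM, log2 ratio -0.53. On the deposited FPKM, RBM15 was 1.57-fold lower. Its paralog RBM15B measured 7.64 and 9.15 FPKM, log2 ratio 0.23. CBLL1, a RING-finger subunit, was level at 11.06 and 10.82 FPKM. Together with the members, the 8 subunits held 6 genes below 0 and 2 above, against 47.8% and 52% of all genes. METTL3, ZC3H13, RBM15 and VIRMA were lowest, and CBLL1, counted among the 6, had a log2 ratio of -0.03.

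Beside the complex, 6 further genes serve adenosine N6 methylation at other sites or on other RNAs. METTL16, which methylates U6 snRNA and a hairpin of MAT2A, measured 9.88 and 7.88 FPKM. METTL5, which methylates the small ribosomal RNA, measured 55.92 and 76.57 FPKM, log2 ratio 0.45, while its stabilising partner TRMT112 measured 116.34 and 100.66 FPKM, log2 ratio -0.21. PCIF1, the enzyme of the cap-adjacent mark, measured 10.3 and 14.6 FPKM, log2 ratio 0.47. ZCCHC4, the large ribosomal RNA enzyme, had a log2 ratio of -0.21. None of the 6 passed 1.5-fold on FPKM + 1, against 10.1% of all genes at least 1.5-fold lower and 13.1% higher.

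Of the 7 other ALKBH dioxygenases, 3 were below 0 and 4 above, against 47.8% and 52% of all genes. ALKBH3, which repairs alkylated nucleic acids and removes N1-methyladenosine, measured 10.33 FPKM in the control and 23.85 FPKM in the knockdown library. It was 2.31-fold higher, a log2 ratio of 1.13. ALKBH7, a mitochondrial family member, measured 18.14 and 24.81 FPKM.

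Of 16 other m6A-binding proteins, 15 had a ratio below 0, and 5 were at least 1.5-fold lower, against 47.8% and 10.1% of all genes. Those 5 were EIF3A (76.49 and 38.96 FPKM, log2 ratio -0.96), HNRNPA2B1 (630.69 and 326.26 FPKM, -0.95), RBMX (305.05 and 171.83 FPKM, -0.82), FXR1 (20.56 and 12.62 FPKM, -0.66) and ELAVL1 (28.6 and 18.57 FPKM, -0.60). EIF3A is a translation initiation subunit, HNRNPA2B1 and RBMX are nuclear splicing proteins, FXR1 is a relative of the fragile X protein, and ELAVL1 stabilises messenger RNAs. Each has main functions apart from m6A. Of the 50-base windows of RBMX, 31.4% also occur in transcripts of other genes, so its value depends on how shared reads were divided. The IGF2BP proteins, which stabilise marked transcripts, were nearer 0, with IGF2BP1 at 16.16 and 15.76 FPKM, IGF2BP2 at 18.76 and 15.94 FPKM and IGF2BP3 at 24.12 and 23.16 FPKM. YTHDC2, the helicase among the YTH proteins, measured 7.75 and 7.49 FPKM. The YTH readers and the IGF2BP genes were thus all within 1.5-fold, where 10.1% of all genes were at least 1.5-fold lower and 13.1% higher.

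Partners that act with the YTH readers had a median of -0.39 over 7 genes. CNOT1, the CCR4-NOT scaffold that YTHDF2 contacts, measured 50.46 and 58.21 FPKM, log2 ratio 0.20. RIDA, the bridge between YTHDF2 and the RNase P/MRP endonuclease, measured 25.26 and 22.11 FPKM. POP1, a subunit of that endonuclease, measured 13.98 and 5.12 FPKM, 2.73-fold lower. SRSF3 and SRSF10, splicing proteins that interact with YTHDC1, had log2 ratios of -0.64 and -0.66, and the export receptor NXF1 one of -0.39.

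Of the 5 genes listed for supply of S-adenosylmethionine, the methyl donor of the methyltransferases, none passed 1.5-fold in transcript level. Among all genes, 10.1% were at least 1.5-fold lower and 13.1% at least 1.5-fold higher. MAT2A, which makes the methyl donor, measured 269.51 and 278.6 FPKM, and its regulatory subunit MAT2B measured 38.21 and 37.99 FPKM. AHCY, which clears the inhibitory by-product, measured 175.97 and 148.47 FPKM, log2 ratio -0.24.

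**Figure D3:**
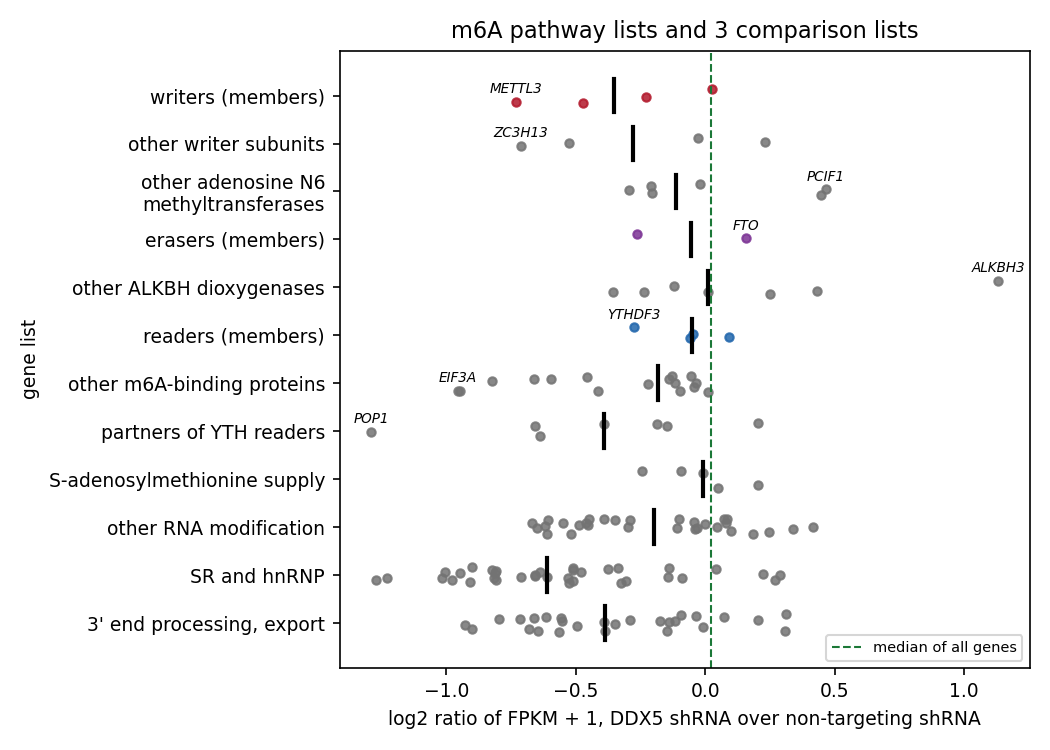
Log2 ratio of FPKM + 1 (x axis) for each gene past the filter, by list (y axis), with members in colour and the median of each list as a black bar. The dashed line is the median of all genes, 0.02. The writers lie lower (median -0.35) than the readers (-0.05), and the SR and hnRNP list is lower than either (-0.61).

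Lists of related RNA factors place these values, beside 47.8% of all genes below 0 and 10.1% at least 1.5-fold lower. Other RNA modification enzymes had a median of -0.20 over 30 genes, with 21 below 0 and 5 at least 1.5-fold lower. Lowest were RPUSD1, a pseudouridine synthase, at 31.62 and 19.53 FPKM, and TRMT10C, a mitochondrial tRNA methyltransferase, at 34.37 and 21.52 FPKM. Highest among genes averaging at least 5 FPKM were TRUB1 and NSUN5, with log2 ratios of 0.34 and 0.25, and PUS10, below that level, had 0.42. Genes of 3′ end processing and export had a median of -0.39 over 27 genes, with 8 at least 1.5-fold lower, lowest being ALYREF (-0.93) and PAPOLA (-0.90), and highest DDX39B and CPSF4 (both 0.31). SR and hnRNP splicing regulators had a median of -0.61 over 35 genes, with 18 at least 1.5-fold lower, lowest being HNRNPD (-1.27) and HNRNPM (-1.23), and highest SRSF8 (0.29) and HNRNPH3 (0.27). The 10 m6A members had a median of -0.14, and 1 of 10 was past 1.5-fold. Their median was nearer to that of all genes than those of these lists were, though close to that of RNA modification enzymes (-0.20). The 4 writers alone had a median of -0.35, near that of the 3′ end list. Of the pathway genes above, 5 also belong to the SR and hnRNP list and 1 to the 3′ end list. The differences between lists were not tested.

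**Figure D4:**
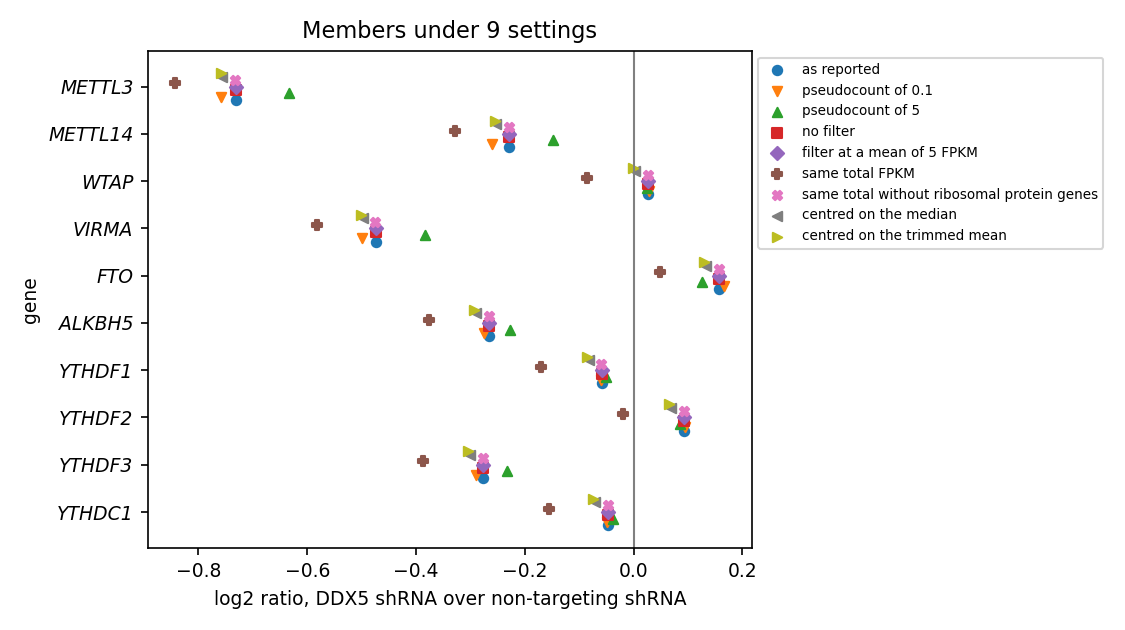
Log2 ratio (x axis) of each member (y axis) as reported and under 8 alternative settings. The ratio of METTL3 lies between -0.84 and -0.63, and WTAP and YTHDF2 are the members whose points lie on both sides of 0.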

How the data were processed

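The authors deposited 1 table of FPKM with 2 decimals, 1 column per library, per the file headers. HISAT, Bowtie2, RSEM 1.2.8 and hg19 appear in the submitters' processing notes, without roles. The annotation used is not given in the sources used here, nor is the strand setting. RSEM divides shared reads by estimation. Columns were matched to groups by title, and RefSeq names (GRCh38.p14) matched 15289 of 16021 rows. Python 3.11.15, numpy 2.4.6, pandas 2.3.3 and matplotlib 3.10.9 were used. The log2 ratio of FPKM + 1 understates differences of low genes. Counts and medians used genes averaging at least 1 FPKM. The spread of a gene was the robust SD of ratios within its bin, 1 of 20 bins of mean level, and that of a list the SD over all genes divided by the root of its size. A single library per group allowed no test. Lists and members were chosen with earlier results of these data known. Named are all members, all genes of the 6 pathway lists where relevant, and the 2 highest and 2 lowest genes of each comparison list at a mean of 5 FPKM or more. TOX4, SOD2 and markers were named for stated checks, and PUS10, COL3A1, DCN and TWIST1 after their values were seen. Transcript lengths, overlaps and windows came from GENCODE v29, and no coordinates were joined to the hg19 files. Alternatives were other pseudocounts, filters and scalings.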

Additional observations from a re-analysis of the deposited data

How the results depend on the processing

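No paired analysis was possible because each group is 1 library. The 10 member ratios and the counts of members past 1.5-fold or 2-fold moved by less than the spread used as a yardstick, or by less than 1.5 times, under 4 scalings, both other pseudocounts (0.1 and 5), without the filter, and with genes averaging at least 5 FPKM. That spread is between genes and is wide beside the shifts from scaling, so staying within it says little. METTL3 went from -0.73 to -0.84 at the same total FPKM, beside a spread of 0.53. The filters leave the ratio of a single gene unchanged, and a pseudocount cannot change its sign. The count of members below 0 was 7 as reported and 9 at the same total FPKM. WTAP was below 0 in 2 of 9 settings and YTHDF2 in 1, the other members in 9 or 0. At the same total FPKM the medians became -0.25 for the members, -0.26 for other m6A pathway genes, -0.31 for other RNA modification enzymes, -0.73 for SR and hnRNP genes and -0.49 for 3′ end processing and export. With ribosomal protein genes left out of the total they hardly moved. The filter at 5 FPKM left 26 RNA modification enzymes with a median of -0.32. A pseudocount of 5 gave an SR and hnRNP median of -0.52 and METTL3 to METTL14 ratios of 3.12 and 2.23, as it pulls low levels together. Depth was estimated and not stated.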
